A study of Mus musculus with 14 samples.

Results

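Oncofetal liver tumour markers are genes that are active in the fetal liver, low in the adult liver and switched on again in part of hepatocellular carcinomas and hepatoblastomas. The 9 genes described here (Afp, Gpc3, Lin28b, Igf2bp1, Igf2bp2, Igf2bp3, Hmga2, Sall4 and Golm1) were taken by symbol, not by their values, from a table of 77981 genes, and each symbol was found once. All 9 passed the filter on low counts, as did 13997 genes in all. Messenger RNA was measured by 3′ sequencing of whole liver tumour pieces in 14 libraries, of which 5 were from wild-type mice (WT), 5 from Cdk18 knockout mice (CDK18KO) and 4 from Cdk18 knockout mice in whose tumours Cdk16 was deleted as well (DKO, the label used throughout). Cdk16 and Cdk18 encode related cyclin-dependent kinases. In all groups tumours were raised by hydrodynamic injection, a fast, large-volume injection into a vein, of c-Myc and β-catenin plasmids, so that the controls carried both oncogenes too. Floxed Cdk16 was deleted in formed tumours by Cre-ERT2, a Cre recombinase that tamoxifen turns on. Tamoxifen was given at 75 mg/kg on 5 days to these mice and to Cre-ERT2 controls, and tumours were taken 10 days after the last dose. The labels do not say which WT or CDK18KO mice were such controls. The end point was a tumour of 15 mm, distress or 8 weeks. Strain, sex, age, the promoter driving Cre-ERT2 and the way Cdk18 was disrupted are not given in the sources used here.

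The set holds secreted and membrane proteins, RNA-binding proteins and nuclear proteins. Alpha-fetoprotein (Afp) is the main plasma protein of the fetal liver, glypican 3 (Gpc3) is a heparan sulphate proteoglycan of the cell surface, and GOLM1 is a Golgi membrane glycoprotein. All are used or studied as markers of human liver cancer. LIN28B and the 3 IGF2 mRNA-binding proteins (Igf2bp1, Igf2bp2, Igf2bp3) bind RNA: LIN28B blocks the maturation of let-7 microRNAs, and the let-7 family in turn represses Lin28b, Hmga2 and Igf2bp mRNAs. HMGA2 is an architectural chromatin protein and SALL4 a zinc-finger transcription factor of embryonic stem cells and fetal liver.

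Libraries held 1442417 to 6068209 counts. Levels are given as CPM (counts scaled to a common library size with TMM factors), and 3 counts, the limit that a count of 0 allows, corresponded to 0.412 to 2.31 CPM. These limits cover counting error only. Cdk18 was low throughout, at 4.76 ± 3.58 CPM in WT (SD, n = 5), 1.98 ± 1.06 in CDK18KO (n = 5) and 1.90 ± 1.51 in DKO (n = 4), and the groups overlapped. Cdk16 lay at 49.1 ± 7.32, 40.6 ± 14.3 and 30.8 ± 15.4 CPM in the same order, and DKO 1 and DKO 3, at 38.9 and 48.5 CPM, were within or close to the WT range of 40.0 to 59.2, so that the counts do not bear out the Cdk16 label of these 2 libraries. The sources used here do not say whether the deleted parts of these genes include the sequenced 3′ ends. Summed hepatocyte markers (19 of the 20 listed symbols were in the table, none at 0 throughout a group) ran from 207 to 5087 CPM in WT, from 1664 to 19507 in CDK18KO and from 2186 to 29746 in DKO. Summed Y-linked genes ran from 3.85 to 788, from 0.311 to 348 and from 0.647 to 2.78 CPM. In DKO against WT, 5 of 6 neutrophil, 9 of 9 erythroid and 3 of 3 lymphocyte markers tested were higher at an unadjusted p under 0.05. Their median log2 fold changes were 2.88, 3.86 and 3.27. The 3 lymphocyte markers tested, of 12 listed, were the immunoglobulin-related genes Ighm, Igkc and Jchain. Of all genes, 13.7% were higher and 5.22% lower at the same limit. Of 15 proliferation genes 2 were lower at that limit and 0 higher, and all 15 fold changes were negative, with a median of -0.52. None of these passed an adjusted p under 0.05 in edgeR. DESeq2 called 3 neutrophil, 6 erythroid and 3 lymphocyte markers as higher and 0 proliferation genes, beside 6.22% of all genes it tested. Of 19 hepatocyte markers tested, 17 were higher in DKO than in WT at an unadjusted p under 0.05, with a median log2 fold change of 3.32. All 4 Y-linked genes were lower at that limit, with a median of -7.03. In edgeR 0 of either list passed an adjusted p under 0.05, and DESeq2 called 15 hepatocyte markers as higher and 3 Y-linked genes as lower. The part of these cells, of proliferation and of the Y-linked difference in the DKO differences below was not tested. In a bulk tumour sample, fewer cells of a type and less RNA per cell cannot be told apart.

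None of the 9 markers passed an adjusted p under 0.05 in edgeR's quasi-likelihood test in any of the 3 comparisons of genotypes. Between CDK18KO and WT 0.00714% of all genes passed, between DKO and WT 0.00714%, and between DKO and CDK18KO 0%. Igf2bp2 came closest. It was lower in every CDK18KO library than in any WT library, with a log2 fold change of -4.24 and an adjusted p of 0.122 in edgeR and of 0.000179 in DESeq2. Levels also varied between tumours of one genotype: Afp spanned 3.42 to 1904 CPM within the CDK18KO group.

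At an unadjusted p under 0.05 in edgeR, 2 of 9 markers (Igf2bp2 and Hmga2) were lower in CDK18KO than in WT and 0 were higher. Of all genes tested, 16.9% passed that limit in this comparison, 5.31% as lower and 11.6% as higher. Against WT the DKO group had 2 lower markers (Igf2bp1 and Igf2bp2) and 0 higher, with 18.9% of all genes passing, 5.22% as lower and 13.7% as higher. Between DKO and CDK18KO 1 marker (Igf2bp2) was higher in DKO and 0 were lower, with 5.8% of all genes passing, 3.94% as higher and 1.86% as lower. The same WT libraries enter the first 2 of these comparisons. The groups did not overlap for 1 marker between CDK18KO and WT (Igf2bp2, lower; 1.6% of all genes lay wholly lower and 1.1% wholly higher). They overlapped for all 9 between DKO and WT (2.46% of genes lower, 3.04% higher) and between DKO and CDK18KO (0.722% lower, 0.872% higher). DESeq2 called 1 marker (Igf2bp2) between CDK18KO and WT, where it called 5.35% of the genes it tested. It called 0 of 9 in the other comparisons, against 6.22% of genes for DKO and WT and 0.697% for DKO and CDK18KO. voom with sample weights called 0 markers and 0% of genes in each of the 3. The median log2 fold change of the 9 was 0.38, -0.39 and -0.44 in CDK18KO against WT, DKO against WT and DKO against CDK18KO, beside -0.01, -0.04 and -0.02 over all genes tested.

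**Figure D1:**
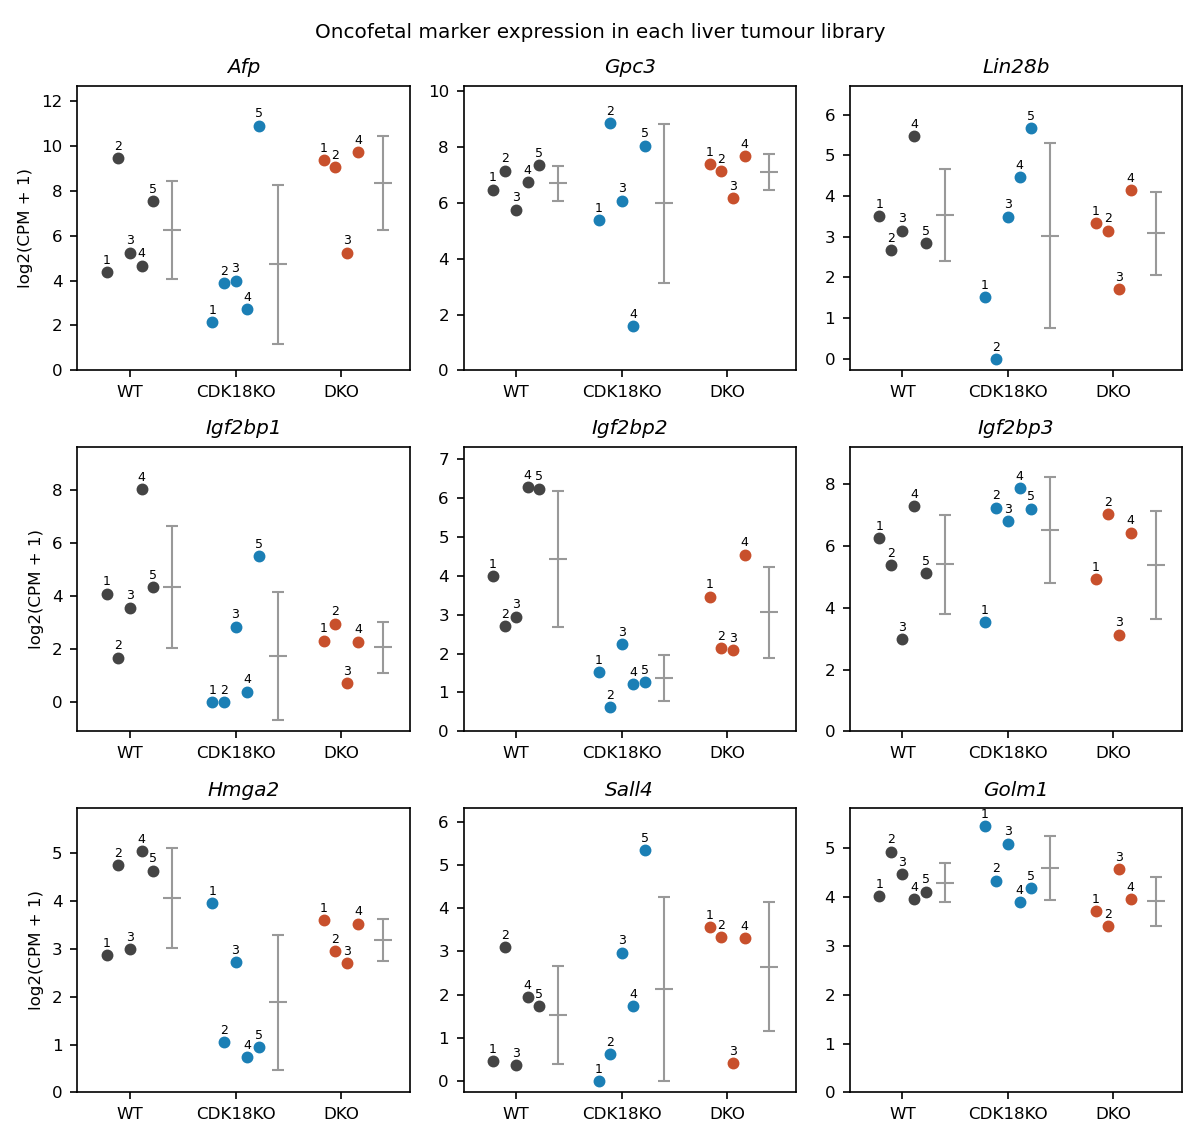
Level of each oncofetal marker in each library, as log2(CPM + 1) on the vertical axis, by genotype; the digit at a point is the replicate number and the grey bar the mean with 1 SD. Igf2bp2 is the marker whose CDK18KO points all lie below the WT points, and CDK18KO 5 is the highest library for Afp, Lin28b and Sall4.

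Afp, the classical serum marker of liver cancer, varied by orders of magnitude among tumours of the same genotype. In WT libraries 1 to 5 it stood at 19.7, 694, 37.0, 24.3 and 186 CPM. In CDK18KO libraries 1 to 5 it was 3.42, 13.8, 14.9, 5.62 and 1904 CPM, and in DKO libraries 1 to 4 it was 658, 523, 36.9 and 842 CPM. Of the CDK18KO tumours 4 lay below every WT tumour, whereas CDK18KO 5 was the highest library of all. Of the DKO tumours 3 were high, and the 36.9 CPM of DKO 3 lay among the low WT values. Afp differed by 1.01 on the log2 scale between CDK18KO and WT (SE 1.55, 95% interval -2.41 to 4.43, edgeR adjusted p = 0.768). Without CDK18KO 5 the same difference was -4.36, with an adjusted p of 0.184. Between DKO and WT the difference was 1.42 (SE 1.63, interval -2.17 to 5.01, adjusted p = 0.651), and without WT 2 it was 2.96. Between DKO and CDK18KO it was 0.41 (SE 1.62, adjusted p = 0.998) and, without CDK18KO 5, 5.78 with an adjusted p of 0.334. With the mean of the hepatocyte markers as a covariate the 3 differences were -0.64, -1.48 and -0.84.

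Afp is at chr5:90490737-90508907 on the plus strand (GRCm38, GENCODE M21) and belongs with Alb, Afm and Gc to the albumin gene family, whose members are made by hepatocytes. Its promoter is shown because HNF1, a hepatocyte factor, is known to bind there. The RefSeq window from 250 bases before the start site to 50 after it (chr5:90490464-90490763, plus strand, GRCm38.p6) reads as follows, with the letters GTTAAT, an HNF1 half-site, in capitals.
Afp promoter: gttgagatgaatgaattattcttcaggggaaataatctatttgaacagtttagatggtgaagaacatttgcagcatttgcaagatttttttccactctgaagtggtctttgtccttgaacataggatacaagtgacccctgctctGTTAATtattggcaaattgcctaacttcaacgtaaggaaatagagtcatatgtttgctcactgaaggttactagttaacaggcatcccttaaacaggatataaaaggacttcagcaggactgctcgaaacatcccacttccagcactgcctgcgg
The marked half-site begins 105 bases before the start site. Only the exact letters GTTAAT were searched, so variant HNF1 sites in the window are not marked, and the marked letters need not be the only site. Searched on both strands, GTTAAT occurs in 7.10% of 32851 promoter windows of this length, and in 0 of the other 6 marker promoters that were in the RefSeq table.

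Albumin itself, which replaces alpha-fetoprotein after birth, did not track Afp in all tumours. Alb lay at 31.5, 1105, 64.0, 123 and 613 CPM in WT 1 to 5, at 385, 1246, 57.1, 390 and 1010 in CDK18KO 1 to 5, and at 3129, 3429, 580 and 1216 in DKO 1 to 4. As a share of the summed Afp and Alb counts, Afp made up 38.4%, 38.6%, 36.6%, 16.5% and 23.3% in WT 1 to 5. In CDK18KO 1 to 5 the share was 0.88%, 1.10%, 20.7%, 1.42% and 65.4%, and in DKO 1 to 4 it was 17.4%, 13.2%, 5.98% and 40.9%. The 95% Wilson interval was 0.492% to 1.57% in CDK18KO 1, 0.750% to 1.60% in CDK18KO 2 and 0.888% to 2.26% in CDK18KO 4, against 30.7% to 46.7% in WT 1 and 64.2% to 66.5% in CDK18KO 5. The share is given as a description without a test between genotypes. The other 3 members of the family had positive fold changes in all 3 comparisons. Alb differed between DKO and WT by 2.43 on the log2 scale (SE 0.99, adjusted p = 0.201).

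**Figure D2:**
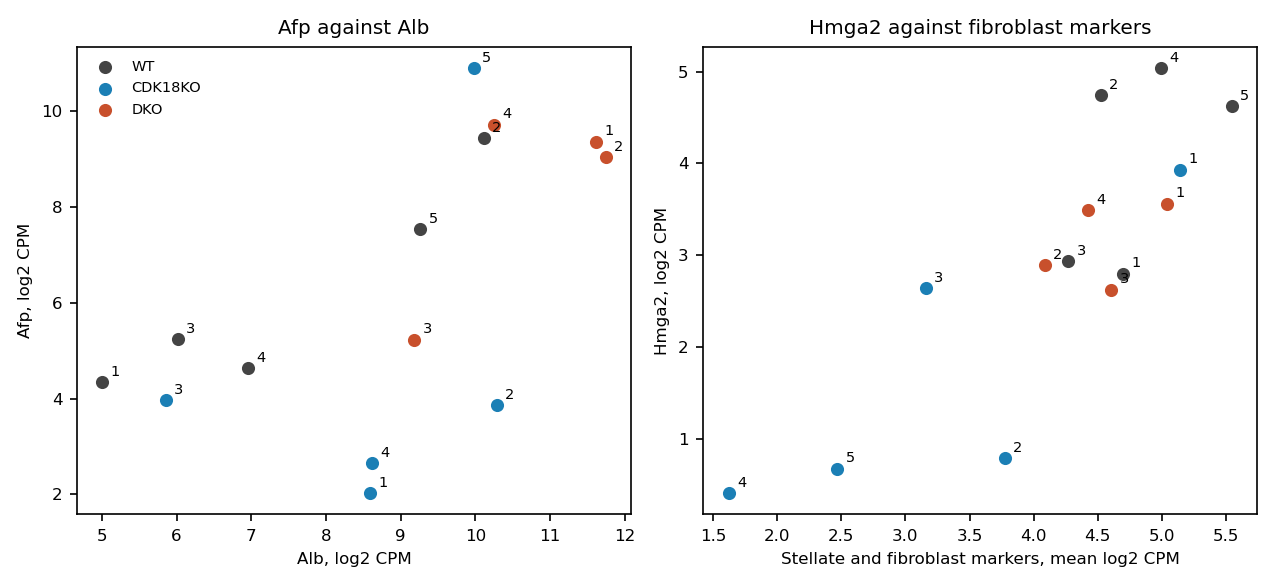
Left, Afp against Alb, and right, Hmga2 against the mean of the stellate cell and fibroblast markers, both axes in log2 CPM with each point a library coloured by genotype. In the left panel CDK18KO 1, 2 and 4 combine Afp of 3.42 to 13.8 CPM with Alb of 385 to 1246 CPM, and in the right panel Hmga2 and the fibroblast markers run in the same direction (Pearson r = 0.84, n = 14).

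Among 14 known or proposed regulators of Afp, none passed an adjusted p under 0.05 in edgeR. At an unadjusted p under 0.05, 3 were higher and 0 lower in CDK18KO than in WT, 4 higher and 1 lower in DKO than in WT, and 1 higher and 0 lower in DKO than in CDK18KO. Over all genes the shares higher and lower were 11.6% and 5.31%, 13.7% and 5.22%, and 3.94% and 1.86% in these comparisons. Nr5a2, a nuclear receptor that activates Afp, lay at 4.08, 32.7, 0.582, 3.47 and 8.49 CPM in WT 1 to 5. The CDK18KO libraries 1 to 5 held 27.3, 306, 58.4, 263 and 151 CPM, and in DKO 1 to 4 it was 58.6, 268, 4.85 and 96.7 CPM. It differed by 3.98 on the log2 scale in CDK18KO (SE 1.08, adjusted p = 0.162 in edgeR, 0.00355 in DESeq2) and by 3.38 in DKO (adjusted p = 0.147 in edgeR). Cebpa, a hepatocyte transcription factor, differed by 2.23 and 2.20 in the same comparisons. Summed hepatocyte markers were higher in the same groups, and their part in these differences was not tested. Zbtb20, a repressor of Afp in the postnatal liver, was lowest in CDK18KO 5 at 54.2 CPM and lay between 154 and 1212 CPM in the other 13. In the DKO libraries, of which 3 had high Afp, it ran from 401 to 742 CPM, with a mean of 628 ± 154 CPM (SD, n = 4) beside 606 ± 364 in WT (n = 5). Zhx2, another postnatal repressor, was also lowest in CDK18KO 5, at 2.78 CPM from 6 counts, beside 4.51 to 18.3 CPM elsewhere. In WT 2 and in DKO 1, 2 and 4, where Afp was high too, Zhx2 was 14.3, 10.6, 4.51 and 7.78 CPM.

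Gpc3 (chrX:52272426-52613950, minus strand) was detected in every tumour and had overlapping levels in all 3 groups. It stood at 87.9, 141, 53.0, 106 and 162 CPM in WT 1 to 5. In CDK18KO 1 to 5 it was 40.7, 462, 66.1, 1.98 and 263 CPM, and in DKO 1 to 4 it was 167, 139, 71.2 and 201 CPM. The CDK18KO group held both the highest and the lowest library, CDK18KO 2 and CDK18KO 4. The log2 difference from WT was 0.60 in CDK18KO (SE 0.83, 95% interval -1.22 to 2.42, adjusted p = 0.741) and 0.39 in DKO (SE 0.87, interval -1.52 to 2.31, adjusted p = 0.822). Without CDK18KO 2 the first was -0.25. Of 9 other glypicans and heparan sulphate enzymes tested, 1 (Ndst1, a sulphotransferase, 0.94 on the log2 scale, adjusted p = 0.193) was higher in CDK18KO than WT at an unadjusted p under 0.05, 0 were lower, and 0 passed in either direction in the other 2 comparisons, beside 11.6% higher over all genes in the first.

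Golm1 (chr13:59634626-59675811, minus strand) had the smallest ratio of highest to lowest library among the 9, running from 9.58 to 42.6 CPM. It was 15.2, 29.4, 21.0, 14.5 and 16.2 CPM in WT 1 to 5. The CDK18KO libraries 1 to 5 held 42.6, 19.1, 32.9, 13.9 and 17.1 CPM, and in DKO 1 to 4 it was 12, 9.58, 22.7 and 14.4 CPM. The 3 groups overlapped. Its log2 difference was 0.38 in CDK18KO (SE 0.37, interval -0.43 to 1.19, adjusted p = 0.625) and -0.39 in DKO against WT (SE 0.40, interval -1.26 to 0.48, adjusted p = 0.604). Of 7 other Golgi membrane and processing proteins, Furin, a Golgi protease, was higher in DKO than in WT at an unadjusted p under 0.05 (1.07, SE 0.47, adjusted p = 0.231), as were 13.7% of all genes, and no other passed that limit in any comparison.

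**Figure D3:**
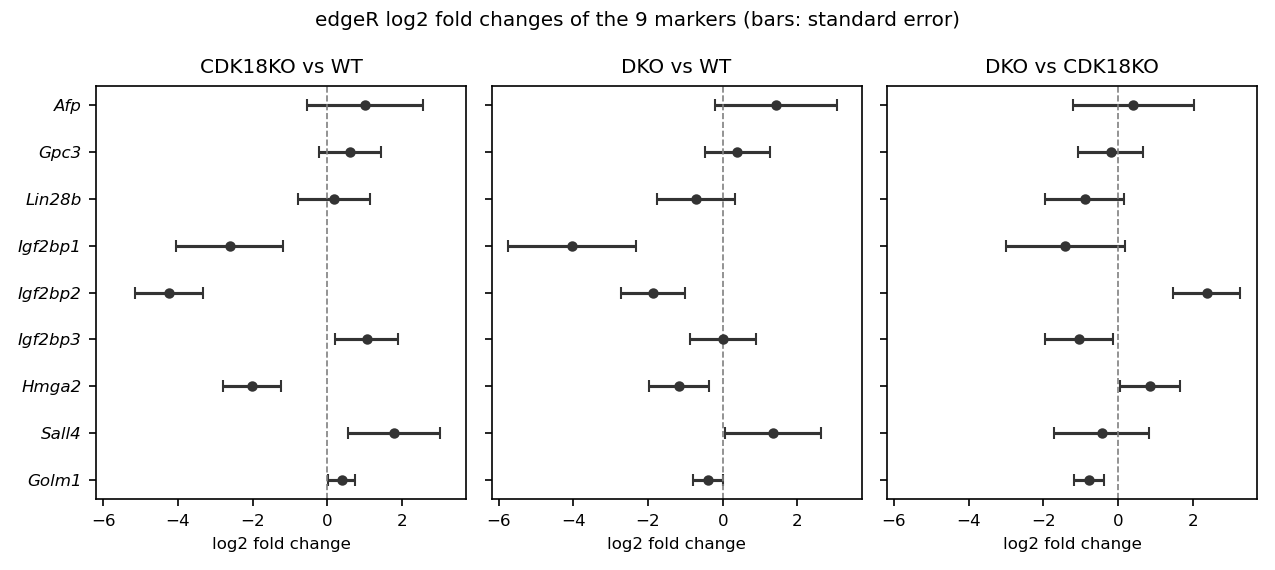
Difference of each marker between genotypes, as log2 fold change on the horizontal axis with 1 SE from edgeR, in 3 panels (CDK18KO against WT, DKO against WT, DKO against CDK18KO). Igf2bp2 in the first panel is at -4.24 with an SE of 0.90, while Afp, at 1.01, has an SE of 1.55.

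The RNA-binding markers are printed with their let-7 sites because Lin28b, Igf2bp1 and Hmga2 are textbook targets of this microRNA family. All 9 mature let-7 and miR-98 5p sequences in the RefSeq table (GRCm38.p6) share the seed at bases 2 to 8, in capitals for 2 of them below. The matching 7 letters, CTACCTC, were searched on the sense strand in the 3′ untranslated region of 20785 genes (GENCODE M21, GRCm38), using 1 transcript a gene, and 9.04% of the genes held at least 1. Lin28b, Igf2bp1 and Hmga2 each held 4, Igf2bp2, Igf2bp3 and Sall4 each held 1, and Afp, Gpc3 and Golm1 held 0. The sites below are those followed by an A, each a 22-base stretch with the site in capitals.
mmu-let-7a-5p: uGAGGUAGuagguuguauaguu
mmu-miR-98-5p: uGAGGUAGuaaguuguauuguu
Lin28b, chr10:45381022-45381043: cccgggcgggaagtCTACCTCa
Igf2bp1, chr11:95961778-95961799: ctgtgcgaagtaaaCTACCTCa
Igf2bp1, chr11:95959357-95959378: agcagtgctattaaCTACCTCa
Igf2bp1, chr11:95958763-95958784: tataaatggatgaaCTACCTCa
Igf2bp2, chr16:22059473-22059494: cacacaaataaaagCTACCTCa
Igf2bp3, chr6:49086787-49086808: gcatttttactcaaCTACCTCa
Hmga2, chr10:120364224-120364245: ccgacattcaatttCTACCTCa
Sall4, chr2:168748940-168748961: gggctttaatttatCTACCTCa
All of these genes lie on the minus strand. The untranslated regions of Lin28b, Igf2bp1 and Hmga2 are also long, at 4445, 6337 and 3014 bases, and among other genes with regions of like length 23.8%, 33.7% and 15.6% held at least 1 match. At least as many matches as in the marker were found in 2 of 1258, 1 of 561 and 2 of 2225 other genes of like length (within 20%). A match is a description of the letters only, and let-7 RNAs were not measured in these poly(A)-primed libraries.

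**Figure D4:**
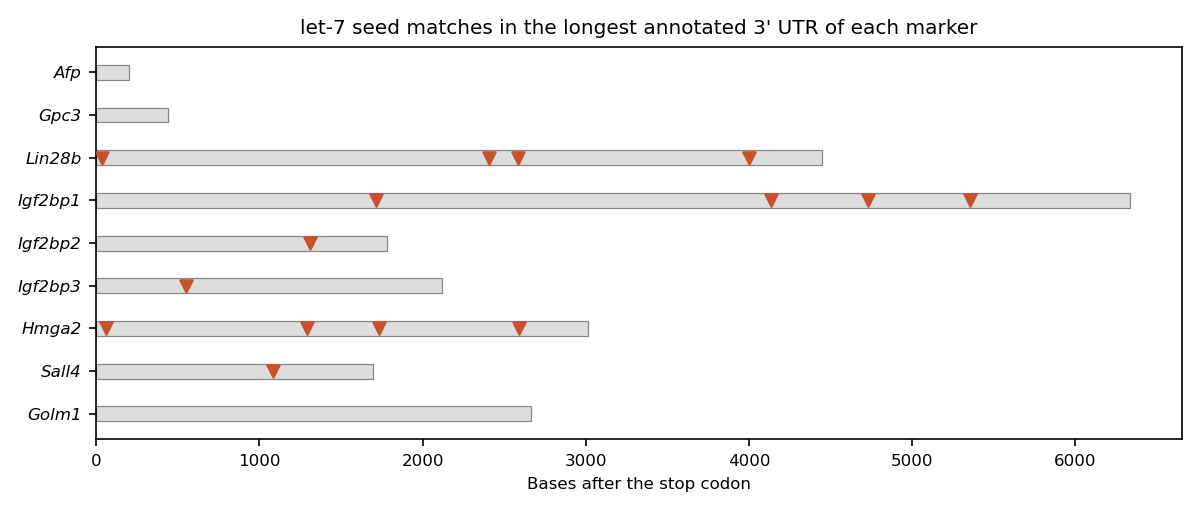
Position of each match to the let-7 seed along the annotated 3′ untranslated region of the 9 markers, in bases after the stop codon. Lin28b, Igf2bp1 and Hmga2 each show 4 marks, Igf2bp2, Igf2bp3 and Sall4 show 1, and Afp, Gpc3 and Golm1 show none.

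Lin28b (chr10:45376620-45486395), the let-7 inhibitor, was low in most tumours, with 1 high tumour in WT and another in CDK18KO. It was 10.4, 5.36, 7.86, 43.5 and 6.17 CPM in WT 1 to 5. In CDK18KO 1 to 5 it was 1.86, 0, 10.2, 21.1 and 50.0 CPM, and in DKO 1 to 4 it was 9.14, 7.89, 2.27 and 16.7 CPM. The 0 in CDK18KO 2 allows a level of up to 1.60 CPM. Differences from WT were 0.18 in CDK18KO (SE 0.96, interval -1.95 to 2.30, adjusted p = 0.942) and -0.72 in DKO (SE 1.05, interval -3.03 to 1.59, adjusted p = 0.727) on the log2 scale. Without CDK18KO 5 the first was -0.80, and without WT 4 the second was 0.26. Lin28a, its paralog, stayed at 0 to 1.11 CPM, at or below 3 counts in all 14 libraries. Of 12 genes of the LIN28 and let-7 processing pathway tested, 0 were higher in any comparison at an unadjusted p under 0.05. In CDK18KO against WT 1 was lower, in DKO against WT 2, and in DKO against CDK18KO 1, beside 5.31%, 5.22% and 1.86% of all genes. Drosha, the nuclease that cuts primary microRNAs, differed by -1.35 in DKO against WT (SE 0.37, adjusted p = 0.146 in edgeR, 0.0180 in DESeq2), and Dgcr8, its partner, by -0.75 (adjusted p = 0.259 in edgeR).

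Igf2bp1 (chr11:95957163-96005940) was carried by single tumours. It was 15.9, 2.20, 10.8, 258 and 19.3 CPM in WT 1 to 5. The CDK18KO libraries 1 to 5 held 0, 0, 6.21, 0.330 and 44.0 CPM, and in DKO 1 to 4 it was 4.00, 6.76, 0.647 and 3.89 CPM. WT 4 was more than all other libraries together, and 3 of 5 CDK18KO tumours were at or under 3 counts. The zeros in CDK18KO 1 and 2 allow up to 0.932 and 1.60 CPM. The log2 difference from WT was -2.62 in CDK18KO (SE 1.43, adjusted p = 0.368) and -4.03 in DKO (SE 1.71, unadjusted p = 0.0331, adjusted p = 0.218). Without WT 4 these were -0.25 and -1.65.

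Igf2bp2 (chr16:22059009-22163299) was the marker with the clearest difference between genotypes. It was 14.8, 5.50, 6.69, 76.3 and 74.1 CPM in WT 1 to 5. In CDK18KO 1 to 5 it was 1.86, 0.532, 3.73, 1.32 and 1.39 CPM, and in DKO 1 to 4 it was 10.0, 3.38, 3.24 and 22.2 CPM. Every CDK18KO value was below every WT value, and the highest of them, CDK18KO 3, also exceeded the 2 lowest DKO values. Means were 35.5 ± 36.4 CPM in WT (SD, n = 5), 1.77 ± 1.20 in CDK18KO (n = 5) and 9.71 ± 8.92 in DKO (n = 4). The whole CDK18KO group held 26 counts, against 441 in WT and 91 in DKO. CDK18KO differed from WT by -4.24 on the log2 scale (SE 0.90, 95% interval -6.22 to -2.26, edgeR unadjusted p = 0.000314, adjusted p = 0.122). DESeq2 gave -4.30 with an adjusted p of 0.000179, and edgeR without the filter on low counts gave -4.13 with an adjusted p of 0.0201. In voom with sample weights the value was -3.25 (adjusted p = 0.262). Leaving out any single library kept the difference between -4.70 and -3.74, with adjusted p between 0.0569 and 0.339 in edgeR. Without WT 4, 1 of the 2 highest libraries, it was -3.74. DKO differed from WT by -1.86 (SE 0.86, unadjusted p = 0.0479, adjusted p = 0.260) and from CDK18KO by 2.37 (SE 0.89, unadjusted p = 0.0183, adjusted p = 0.670). Without DKO 4 these differences were -2.60 and 1.62.

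Levels of cell-type markers are given beside this difference. Summed stellate cell and fibroblast markers (12 of 12 in the table, none at 0) ran from 466 to 1336 CPM in WT and from 51.5 to 944 in CDK18KO, and were 528 to 1258 in DKO. Summed cholangiocyte markers (10 of 10 in the table, none at 0) ran from 167 to 464, from 23.5 to 308 and from 152 to 651 CPM. Of 11 stellate cell and fibroblast markers tested 5 were lower in CDK18KO than in WT at an unadjusted p under 0.05. Of 8 cholangiocyte markers 5 were lower, beside 5.31% of all genes. In edgeR 0 passed an adjusted p under 0.05. DESeq2, which called Igf2bp2, also called 3 of these stellate cell and fibroblast markers and 4 of these cholangiocyte markers as lower. It called 5.35% of all genes it tested, in either direction. Their part in the Igf2bp2 difference was not tested. The Igf2bp2 difference between CDK18KO and WT was -4.10 with the hepatocyte markers as a covariate (adjusted p = 0.333) and -3.89 with the Y-linked genes (adjusted p = 0.438).

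Igf2bp3 (chr6:49085223-49214957) stood in contrast to its relatives, being high in most CDK18KO tumours. It was 76.0, 40.9, 6.99, 157 and 33.9 CPM in WT 1 to 5. The CDK18KO libraries 1 to 5 held 10.6, 152, 111, 233 and 148 CPM, and in DKO 1 to 4 it was 29.7, 131, 7.77 and 85.6 CPM. The ranges overlapped widely, with WT 4 above 4 of the CDK18KO libraries. The log2 difference from WT was 1.05 in CDK18KO (SE 0.84, interval -0.79 to 2.89, adjusted p = 0.546) and 0.01 in DKO (SE 0.88, interval -1.94 to 1.95, adjusted p = 0.997). With the Y-linked genes as a covariate these values were -0.24 and -1.44. In the CDK18KO group, where Igf2bp2 stayed at or below 3.73 CPM, Igf2bp3 averaged 131 ± 80.7 CPM (SD, n = 5). No stretch of 31 bases was shared between any of the 36 pairs of marker transcripts.

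Hmga2 (chr10:120361275-120476469), the chromatin protein, followed a pattern like that of Igf2bp2. It was 6.30, 26.1, 6.99, 32.1 and 23.9 CPM in WT 1 to 5. In CDK18KO 1 to 5 it was 14.6, 1.06, 5.59, 0.661 and 0.927 CPM, and in DKO 1 to 4 it was 11.1, 6.76, 5.50 and 10.6 CPM. CDK18KO 1 lay among the WT values, and the other 4 CDK18KO libraries lay below all of them. The log2 difference in CDK18KO was -2.02 (SE 0.77, interval -3.71 to -0.33, unadjusted p = 0.0194, adjusted p = 0.210), and without CDK18KO 1 it was -3.13 with an adjusted p of 0.0552. In DKO it was -1.16 (SE 0.80, interval -2.93 to 0.60, adjusted p = 0.446). Its paralog Hmga1 ran from 3.09 to 14.2 CPM over all libraries.

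Sall4 (chr2:168748332-168767943), the stem cell factor, was near the limit of detection in many tumours. It was 0.371, 7.56, 0.291, 2.84 and 2.31 CPM in WT 1 to 5. The CDK18KO libraries 1 to 5 held 0, 0.532, 6.83, 2.31 and 39.9 CPM, and in DKO 1 to 4 it was 10.9, 9.01, 0.324 and 8.89 CPM. Of the DKO libraries 3 exceeded every WT value and DKO 3 did not. The log2 difference was 1.79 in CDK18KO (SE 1.23, interval -0.91 to 4.50, adjusted p = 0.479) and 1.36 in DKO (SE 1.28, interval -1.47 to 4.18, adjusted p = 0.578). Without CDK18KO 5 the first was -0.18. Sall1, another SALL family member, differed from WT by 1.72 in CDK18KO (adjusted p = 0.221 in edgeR) and by 2.20 in DKO (adjusted p = 0.147 in edgeR, 0.0410 in DESeq2). Of 3 other SALL family and pluripotency genes tested (10 listed), it was the 1 higher at an unadjusted p under 0.05 in each. Over all genes 11.6% and 13.7% were higher. The other 2, Sall2 and Sox2, had negative fold changes in both comparisons.

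None of the other oncofetal genes was called in edgeR. Of 25 further oncofetal and hepatoblast genes tested (30 listed), 2 were higher and 3 lower in CDK18KO than in WT at an unadjusted p under 0.05, beside 11.6% higher and 5.31% lower over all genes. The numbers were 2 higher and 1 lower in DKO against WT (all genes 13.7% and 5.22%), and 4 higher and 1 lower in DKO against CDK18KO (all genes 3.94% and 1.86%). Median log2 fold changes were -0.42, 0.14 and 0.07. The 3 lower in CDK18KO were the biliary and progenitor genes Krt19 (-5.29, SE 1.02, adjusted p = 0.102), Epcam (-4.61, adjusted p = 0.130) and Krt7 (-4.76, adjusted p = 0.147), and DESeq2 called all 3. These 3 genes are also in the cholangiocyte list, among its 5 lower markers given above, so the 2 counts are not separate results. Acsl4, an enzyme that activates arachidonic acid, differed by 2.79 in DKO against WT (SE 0.78, adjusted p = 0.146 in edgeR, 0.0148 in DESeq2). Among 19 other let-7 target genes, 0 passed an unadjusted p under 0.05 in CDK18KO against WT, as 16.9% of all genes did. In DKO against WT 2 were higher and 3 lower (18.9% of all genes in either direction), and in DKO against CDK18KO 0 were higher and 1 lower (5.8%). Cdc25a, a phosphatase that drives the cell cycle, differed by -0.93 in DKO against WT (SE 0.30, adjusted p = 0.147 in edgeR, 0.0430 in DESeq2).

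Markers that varied together across tumours formed 3 pairs. Of 36 pairs tested over the 14 libraries on log2 CPM, 3 had an adjusted permutation p under 0.05 for Pearson's r and 0 for Spearman's rho. Afp and Sall4 had r = 0.79 (permutation p = 0.00121, adjusted 0.0412) and rho = 0.73 (adjusted permutation p = 0.0709). Without CDK18KO 5 and DKO 4, r was 0.69, and it was 0.78 within WT, 0.88 within CDK18KO and 0.99 within DKO. Igf2bp2 and Hmga2 had r = 0.75 (permutation p = 0.00229, adjusted 0.0412) and rho = 0.73 (adjusted permutation p = 0.0709). Without WT 4 and WT 5, r was 0.63, and within the genotypes, in the same order, it was 0.52, 0.60 and 0.88. Lin28b and Igf2bp1 had r = 0.73 (permutation p = 0.00383, adjusted 0.0460) and rho = 0.60 (adjusted permutation p = 0.162). Without CDK18KO 2 and CDK18KO 5, their r was 0.63, and it was 0.93, 0.75 and 0.78 within the 3 genotypes. The permutations moved libraries across genotypes, so a genotype difference shared by 2 markers enters these p-values. With the mean of each genotype subtracted, r was 0.87 for Afp and Sall4, 0.47 for Igf2bp2 and Hmga2, and 0.77 for Lin28b and Igf2bp1. These centred values and the within-genotype values are given without a test, and the latter rest on 4 or 5 libraries each.

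Each marker was set against the mean levels of hepatocyte, cholangiocyte, stellate cell and fibroblast, macrophage, proliferation and Y-linked genes. Endothelial, neutrophil, erythroid and lymphocyte markers were not included. Of 54 relations 1 had an adjusted permutation p under 0.05 for Pearson's r. Hmga2 ran with the stellate cell and fibroblast markers, with r = 0.84 (permutation p = 0.00024, adjusted 0.0130) and rho = 0.77 (adjusted permutation p = 0.0564). Without CDK18KO 4 and CDK18KO 5, r was 0.67. Within WT, CDK18KO and DKO it was 0.55, 0.80 and 0.46, and with the mean of each genotype subtracted it was 0.71. Igf2bp2 had r = 0.63 with the same markers (adjusted permutation p = 0.212). With the mean of each genotype subtracted this r was 0.29, and within WT, CDK18KO and DKO it was 0.88, 0.04 and 0.28. Igf2bp3 ran opposite to the cholangiocyte markers, with r = -0.67 (adjusted permutation p = 0.161) and rho = -0.78 (adjusted permutation p = 0.0564). The part of stellate cells and fibroblasts in the Hmga2 difference between genotypes was not tested.

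**Figure D5:**
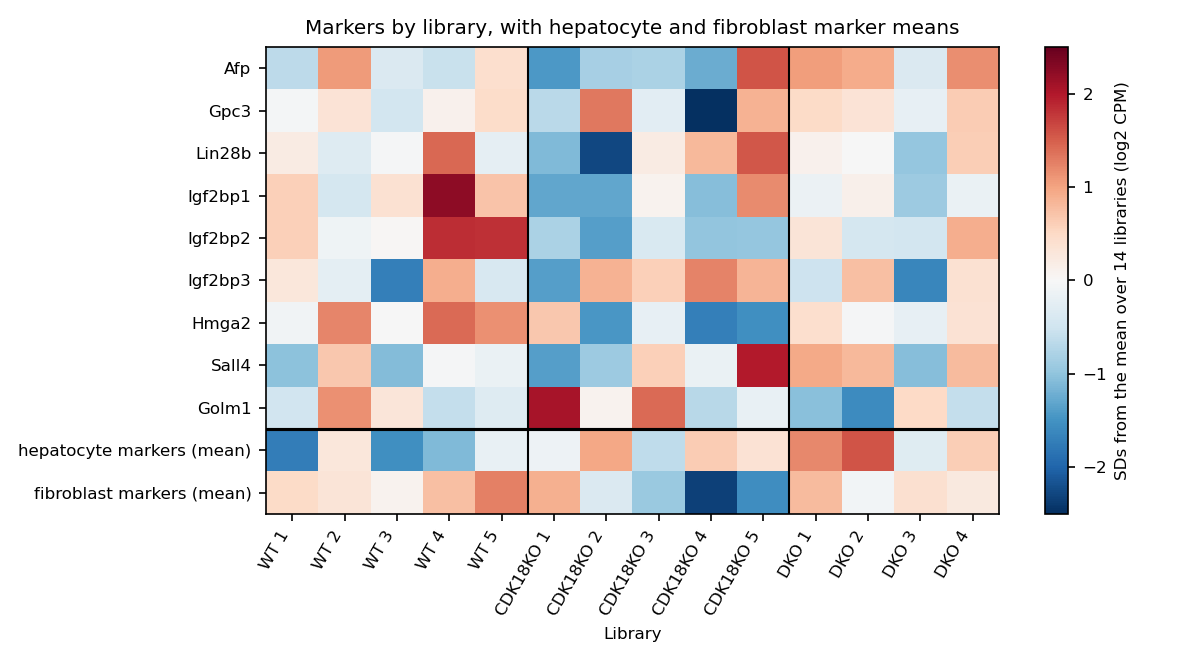
Level of each marker in each library, as SDs from its mean over the 14 libraries on the log2 CPM scale, with the mean of the hepatocyte and of the fibroblast markers below. In the CDK18KO 5 column Afp, Lin28b, Igf2bp1 and Sall4 are high while Igf2bp2 and Hmga2 are low.

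The genes outside the set whose log2 CPM ran most like each marker over the 14 libraries were found by Pearson's r among 13988 genes and are given as a description. For Afp they were Slc36a2 (r = 0.95), Hal (0.87) and Acss1 (0.87). Slc36a2, an amino acid transporter, stood at 58.8 CPM in CDK18KO 5 and at 0 to 0.330 CPM in the other CDK18KO libraries. For Gpc3 they were Nectin3 (0.93), Chic1 (0.89) and Ppargc1a (0.87), with lower values of Spearman's rho (0.67, 0.57 and 0.76). For Golm1 they were Lsm4 (0.86), Dda1 (0.85) and 4933431E20Rik (0.84). Igf2bp2 ran most like Gm38211 (0.95), Wnt7b (0.90), a WNT ligand, and Plk2 (0.89). Hmga2 ran most like Rab31, Pcdh7 (0.91 each) and Fstl1 (0.90). The nearest genes of Igf2bp1 were Dchs1, Peg3 (0.89 each) and Pth1r (0.85), and those of Igf2bp3 included Gm43256 (0.94) and Iffo2 (0.92). Sall4 ran most like Shbg (0.90), Morc4 (0.88) and Gm16551 (0.87). Lin28b ran most like Rbm34 (0.84), E330037G11Rik and an unnamed gene (0.85 each), the last with a Spearman's rho of 0.55. Libraries of all genotypes, depths and hepatocyte marker levels are shared by these points.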

How the data were processed

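The deposited table holds raw counts per gene for 14 tumour libraries made with a 3′ poly(A)-primed kit, per the labels' protocols. The submitters' processing notes name STAR 2.7.11a, UMI-tools 1.1.2, FastQC, DESeq2 1.32.0 and HTSeq 1.99.2. They also list 2 genome builds, GRCh38 and mm10, and do not say what each was used for. Annotation, collapsing of molecular identifiers and strand setting of the count are not given in the sources used here. Reads of antisense neighbours (at 7 of the 9 markers) could therefore not be told apart with certainty.

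Differences were tested with edgeR (4.0.16, R 4.3.3; quasi-likelihood F test), with TMM factors, the default low-count filter, all 14 libraries in one fit and Benjamini-Hochberg adjustment over all 13997 genes kept (99.0% of counts), two-sided at 0.05. DESeq2 1.42.0 and voom (limma 3.58.1) were alternatives. SE is the log2 fold change divided by the square root of F. Correlations used log2 CPM (prior count 2) and 100000 permutations. The design text calls the libraries biological replicates.

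Members and lists were chosen with earlier results of these data known. Named genes are the 9 markers, Cdk16, Cdk18, up to 4 genes with the smallest p in each list, and the 3 nearest genes of each marker, of which 1 is not reported here. Zbtb20, Zhx2, Lin28a, Hmga1 and Trim71 were named after their values were seen.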

Additional observations from a re-analysis of the deposited data

Results flagged for a closer look

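In 6 of 27 groups of a marker's libraries the highest value stood apart from the others by Dixon's test on CPM. The limits used flag about 1 in 20 groups when values are normally distributed, which was not shown for CPM. The groups also share libraries, so the 6 cannot be set against that rate. On the log2(CPM + 1) scale 1 of the 6 did, Afp in CDK18KO 5, as did the lowest library in 3 other groups: Afp in DKO 3, Igf2bp3 in CDK18KO 1 and Sall4 in DKO 3, at 36.9, 10.6 and 0.324 CPM. Afp was 694 CPM in WT 2 and 1904 CPM in CDK18KO 5. Lin28b was 43.5 CPM in WT 4. Igf2bp1 was 258 CPM in WT 4 and 44.0 CPM in CDK18KO 5. Sall4 was 39.9 CPM in CDK18KO 5.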

How the results depend on the processing

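No marker was called in edgeR in any comparison when a library was left out (0 to 0 calls), nor with RLE factors, a stricter filter, only the 2 groups compared, or the hepatocyte or Y-linked covariates. With only the 2 groups compared, Sall4 did not pass the filter for CDK18KO against WT and has no value. Calls for CDK18KO against WT moved from 0 to 1 (Igf2bp2) in 3 settings: DESeq2 (-4.30), no filter (-4.13) and the replicate block (-3.54, adjusted p = 0.0441). DESeq2 called 5.35% of all genes it tested. The share of all genes called without the filter or with the replicate block was not counted, so those calls cannot be set against it. Same-numbered libraries deviated together with correlations of -0.232 to 0.654, and 3 of 13 correlated best with their own number, all 3 of them replicate 2 (0.305, 0.452 and 0.581). Not every pair was over 0.1, so the numbers were not taken to pair the libraries. The block changed no other call.

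Directions turned in 42 fits: 15 for CDK18KO against WT, 12 for DKO against WT and 15 for DKO against CDK18KO. The causes were not tested. For CDK18KO against WT, the hepatocyte covariate gave -0.64 for Afp and -0.51 for Gpc3. voom gave -1.14 for Afp, -0.60 for Gpc3 and -0.65 for Lin28b. The replicate block gave -1.98 for Afp and -0.39 for Lin28b, and the Y-linked covariate -0.24 for Igf2bp3 and -0.65 for Lin28b. Leaving out a library gave -4.36 to 2.55 for Afp, -0.25 to 0.92 for Gpc3, -0.80 to 1.15 for Lin28b and -0.18 to 2.78 for Sall4. For DKO against WT, the hepatocyte covariate gave -1.48 for Afp, -0.96 for Gpc3, -1.19 for Igf2bp3 and -0.79 for Sall4. For Igf2bp3 the replicate block gave -0.17 and the Y-linked covariate -1.44. Leaving out a library gave -0.61 to 0.68 for Igf2bp3 and -1.19 to 0.26 for Lin28b. For DKO against CDK18KO, the hepatocyte covariate gave -0.84 for Afp. The replicate block gave 0.73 for Gpc3, 0.75 for Igf2bp1, 0.19 for Lin28b and 0.98 for Sall4, and voom gave 1.12, 0.99, 0.29 and 1.07 for the same genes. Leaving out a library gave -0.52 to 0.63 for Gpc3, -1.80 to 1.09 for Igf2bp1, -1.38 to 0.09 for Lin28b and -0.76 to 1.53 for Sall4.

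Depth limits Sall4, Lin28b, Igf2bp1, Igf2bp2 and Hmga2, which lie at or under 3 counts in some libraries. With 4 or 5 tumours a group, differences such as that of Afp have intervals several log2 units wide.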

Other observations

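Trim71, a let-7 target and stem cell gene named after its values were seen, was 18.2, 16.8, 1.16, 31.8 and 14.7 CPM in WT 1 to 5. It was 0, 0, 10.9, 0.330 and 101 CPM in CDK18KO 1 to 5 and 14.3, 28.7, 1.62 and 15.6 CPM in DKO 1 to 4. CDK18KO 5, the library with the most Afp, Lin28b and Sall4, was again the highest.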
